A study of Mus musculus with 10 samples.

Results

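Mouse embryonic stem cells that lack Rybp were compared with wild type cells after 14 days of differentiation toward cardiac cells, by RNA sequencing of 4 of the series' 10 libraries. The comparison took every library that the labels give as day 14. The Rybp-null group held 2 libraries of the cardiac culture derived from Rybp-null embryonic stem cells, and the wild type group held 2 libraries of the same kind of culture derived from wild type embryonic stem cells. Both genotypes carry the strain label 129x1 x 129S1, and both were differentiated through embryoid bodies formed in hanging drops. Of the other 6 libraries, the 4 of day 8 added to the estimate of the spread and set day 8 beside day 14, and the 2 of day 0, 1 a genotype, entered the fit without adding to that estimate. The labels do not say whether the 2 libraries of a group came from separate cultures, or how many clones of null cells were used, so the p-values measure only the spread between these samples.

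RYBP binds the RING1 ubiquitin ligases and is a subunit of variant Polycomb repressive complexes, which place ubiquitin on histone H2A and keep developmental and germ cell genes silent in cells that should not use them. Among the subunits of the PCGF6 form of the complex, MGA with MAX recognises E-box sequences and E2F6 recognises E2F-type sequences, which occur in promoters of germ cell genes. In a cardiac culture made from embryonic stem cells, contracting cells are recognised by the sarcomere, the repeating unit of myosin thick filaments, actin thin filaments and titin, and they lie among fibroblasts, smooth muscle, endothelial cells and macrophages.

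Of the 15819 genes with enough counts to test, 97 (0.613%) passed at an adjusted p under 0.05 in edgeR's quasi-likelihood test, 41 (0.259%) of them higher and 56 (0.354%) lower in null cultures. Of these, 38 were higher and 53 were lower by at least 2-fold. Those called lower included the imprinted factor Plagl1, the imprinted RNA Meg3, cardiac myosin and actin genes and osteoclast genes, and those called higher included germ cell, meiosis and placental genes. Levels below are in CPM, counts relative to a library size scaled by the trimmed mean of M-values (TMM), and log2 fold changes, given as log2 changes in brackets, are null minus wild type. Across all tested genes the median log2 fold change was -0.015, and 2038 of the 15819 had an unadjusted p under 0.05 in edgeR's test. Counts of list members at an unadjusted p at day 14 are to be read beside that share.

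**Figure D1:**
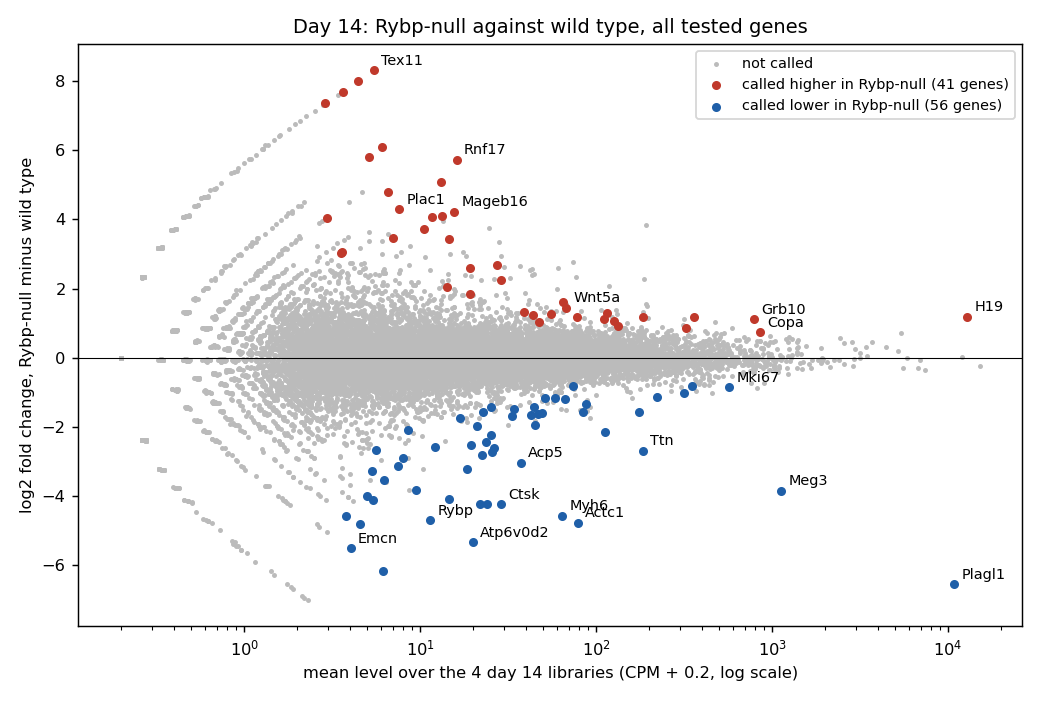
Log2 fold change of Rybp-null over wild type cultures at day 14 (vertical axis) against the mean level over the 4 libraries (horizontal axis, CPM + 0.2, log scale), for each of the 15819 tested genes. Red points are the 41 genes called higher, blue points the 56 called lower and grey points the rest; Plagl1 and Meg3 lie far below the other abundant genes, and the grey rows at the left are genes with few counts.

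The libraries were shallow. The null libraries held 3311037 and 3951179 counts and the wild type libraries 3143829 and 3812029, and the Spearman correlation between replicates across genes was 0.961 in null and 0.969 in wild type cultures. Genes of chromosomes 1, 6, 8 and 14 stood apart from the rest: they made up 18.5% of the tested genes and had a median log2 fold change of 0.28, with 20 called higher and 5 called lower. On the other autosomes the median was -0.07, with 15 called higher and 46 called lower. The median was 0.41 on chromosome 1, 0.37 on chromosome 14, 0.19 on chromosome 6 and 0.1 on chromosome 8, and the part of this shift in the calls on these chromosomes was not tested. Among 4 tested genes of chromosome Y, Ddx3y, an RNA helicase, and Uty, a histone demethylase relative, were called lower. Ddx3y had 2.82 and 1.98 CPM in null cultures, against 49.9 and 40.3 CPM in wild type cultures, and Uty had 4.79 and 6.43 CPM against 43.2 and 22.7 CPM. Eif2s3y, a translation factor gene of the same chromosome, had 144 and 169 CPM in null cultures, against 190 and 181 CPM in wild type cultures, and did not pass. These chromosome-wide values and the loss of Rybp cannot be told apart by the design.

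Rybp itself was nearly absent from the null libraries. It had 1.13 and 0.494 CPM in null cultures, against 19.5 and 23.5 CPM in wild type cultures, and the groups did not overlap (log2 change -4.71, SE 0.43, adjusted p 0.000338, edgeR's quasi-likelihood test). Here and below, the share of all tested genes whose groups do not overlap is not given. Non-overlap of a called gene therefore only describes its values and adds nothing to its test. Its processed pseudogene Rybp-ps, a close copy whose reads cannot be told apart from those of Rybp, had 0 and 0.247 CPM in null cultures, against 14.9 and 8.68 CPM in wild type cultures. Its pooled level was 87.5 times higher in wild type, with a 95% counting interval of 15.3 to 3500. Yaf2, the paralog that can take the place of RYBP in the complex, had 14.9 and 15.1 CPM in null cultures and 21.6 and 17.6 CPM in wild type cultures (log2 change -0.38, SE 0.31, adjusted p 0.702). Of 20 tested partners of the variant complexes 0 passed in edgeR's test and 0 in DESeq2's, 2 had an unadjusted p under 0.05, and their median log2 fold change was 0.11. Of 13 genes of PRC2, the Polycomb complex that methylates histone H3, 0 passed in edgeR's test and 1 in DESeq2's, and 3 had an unadjusted p under 0.05. Mga, the scaffold of the PCGF6 complex, had 642 and 596 CPM in null cultures and 630 and 581 CPM in wild type cultures.

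The largest difference in expression among abundant genes was that of Plagl1, an imprinted zinc finger transcription factor active in the embryonic heart. Plagl1 had 155 and 299 CPM in null cultures, against 20100 and 22700 CPM in wild type cultures. Both null libraries lay far below both wild type libraries, and the difference on the log2 scale came to -6.56 (SE 0.3, adjusted p 7.98e-07, edgeR's quasi-likelihood test), beside -6.26 (SE 0.3) at day 8. Meg3, a maternally expressed non-coding RNA, had 142 and 151 CPM in null cultures, against 2350 and 1860 CPM in wild type cultures (log2 change -3.85, SE 0.26, adjusted p 2.12e-05). Rtl1, a retrotransposon-derived gene of the same imprinted interval that acts in placenta and muscle, had 4.79 and 9.64 CPM in null cultures, against 51.4 and 38.5 CPM in wild type cultures (log2 change -2.62, SE 0.41). Both Meg3 and Rtl1 had null libraries wholly below the wild type libraries. Rtl1 lies on the minus strand, opposite to that of Meg3. The strand setting of the counts is not given, so antisense reads cannot be told apart from those of Rtl1, and its value is uncertain.

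Imprinted genes did not move in a single direction. Of 55 genes on the imprinted list, 48 matched the table and 40 were tested, with 2 called higher, 3 called lower and a median log2 fold change of 0.1. H19, a maternally expressed RNA, had 17600 and 18000 CPM in null cultures, against 6900 and 8750 CPM in wild type cultures (log2 change 1.19, SE 0.15, adjusted p 0.00502, edgeR's quasi-likelihood test). Grb10, an adaptor that restrains insulin and growth factor signalling, had 945 and 1210 CPM in null cultures, against 473 and 514 CPM in wild type cultures (log2 change 1.12, SE 0.17, adjusted p 0.0135). H19 and Grb10 were thus higher in both null libraries than in either wild type library. Igf2, the growth factor that neighbours H19, had 11900 and 15800 CPM in null cultures and 14100 and 18500 CPM in wild type cultures, with overlapping groups (log2 change -0.24, SE 0.24, adjusted p 0.768). Leaving out single libraries ended some of these calls, with the direction kept: without wild type replicate 1 of day 14 the log2 fold change was 1.03 for H19, 1.07 for Grb10 and -2.4 for Rtl1; without wild type replicate 2 it was 1.19 for Grb10 and -2.81 for Rtl1. Without null replicate 1 it was -2.21 for Rtl1, and without null replicate 2 it was 0.94 for Grb10, and neither passed. Plagl1 and Meg3 passed in every fit with a library left out.

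Meg3 and Rtl1 lie in the imprinted interval of chromosome 12 between Dlk1 and Dio3, whose maternal copy is transcribed through Meg3 into arrays of small nucleolar RNAs (snoRNAs) and miRNAs. The snoRNAs of this interval were grouped after their values were seen. The table holds 74 genes of the interval, of which 15 had enough counts to test, and 7 were called, all of them lower. The 7 were Meg3, Rtl1 and the snoRNA genes Gm23474, AF357425, Gm24895, DQ267100 and Gm26922. All 11 tested snoRNA genes of the interval had negative log2 fold changes, with a median of -3.82, whereas of the 113 snoRNA genes tested elsewhere 0 were called by edgeR or DESeq2, 6 had an unadjusted p under 0.05 and the median was -0.04. Their sequences as annotated in GENCODE vM21 on GRCm38 are given so that the called members can be compared; capitals mark TGATGA, the core of the C box, and CTGA, the D box, both searched on the RNA strand only.
Gm23474 (chr12:109633768-109633842, plus strand): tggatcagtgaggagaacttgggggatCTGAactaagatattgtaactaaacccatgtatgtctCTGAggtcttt
AF357425 (chr12:109636012-109636084, plus strand): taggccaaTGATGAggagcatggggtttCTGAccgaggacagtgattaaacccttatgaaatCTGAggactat
Gm24895 (chr12:109646129-109646202, plus strand): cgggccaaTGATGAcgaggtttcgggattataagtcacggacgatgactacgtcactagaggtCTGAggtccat
DQ267100 (chr12:109649617-109649688, plus strand): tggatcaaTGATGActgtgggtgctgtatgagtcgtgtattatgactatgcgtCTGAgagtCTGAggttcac
Gm26922 (chr12:109654627-109654698, plus strand): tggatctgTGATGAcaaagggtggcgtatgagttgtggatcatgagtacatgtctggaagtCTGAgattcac
TGATGA was found in 81.8% of the 22 snoRNA genes of the interval in the table, against 12.4% of the 1148 other snoRNA genes, and CTGA in 86.4% against 75.9%. The other snoRNA genes were taken whatever their class, so the shares do not set the interval apart from other snoRNAs with these boxes. Those of the interval are short, related RNAs within a longer transcript. Reads may thus be shared between copies and with their host, and the value of a single snoRNA gene is uncertain.

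Gm23474 had 1.41 and 1.73 CPM in null cultures, against 27.1 and 27.3 CPM in wild type cultures (log2 change -4.08, SE 0.41, adjusted p 0.000637, edgeR's quasi-likelihood test). Gm24895 had 1.69 and 0.741 CPM in null cultures, against 17.9 and 16.6 CPM in wild type cultures (log2 change -3.82, SE 0.46). In both cases the null libraries lay below the wild type libraries, which were close to each other. DQ267100 had 0.563 and 0.494 CPM in null cultures, against 10.3 and 7.66 CPM in wild type cultures, and Gm26922 had 0.845 and 0.989 CPM against 12.8 and 9.44 CPM. AF357425 had 0 and 0.494 CPM in null cultures, against 7 and 6.89 CPM in wild type cultures, a pooled ratio of 26.4 (95% counting interval 6.93 to 224). Null replicate 1 held 0 counts of it, so its log2 fold change without null replicate 2, within the range below, is not a measured size. AF357425 stopped passing without any of the 4 libraries of day 14 or either wild type library of day 8, with log2 fold changes between -7.72 and -3.72, and DQ267100 stopped passing without any of the 4 libraries of day 14, with log2 fold changes between -4.21 and -3.78. Dlk1, the growth regulator at the end of the interval nearer to Meg3, is expressed from the paternal copy. It had 879 and 1530 CPM in null cultures and 825 and 907 CPM in wild type cultures and did not pass (log2 change 0.48, SE 0.67).

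**Figure D2:**
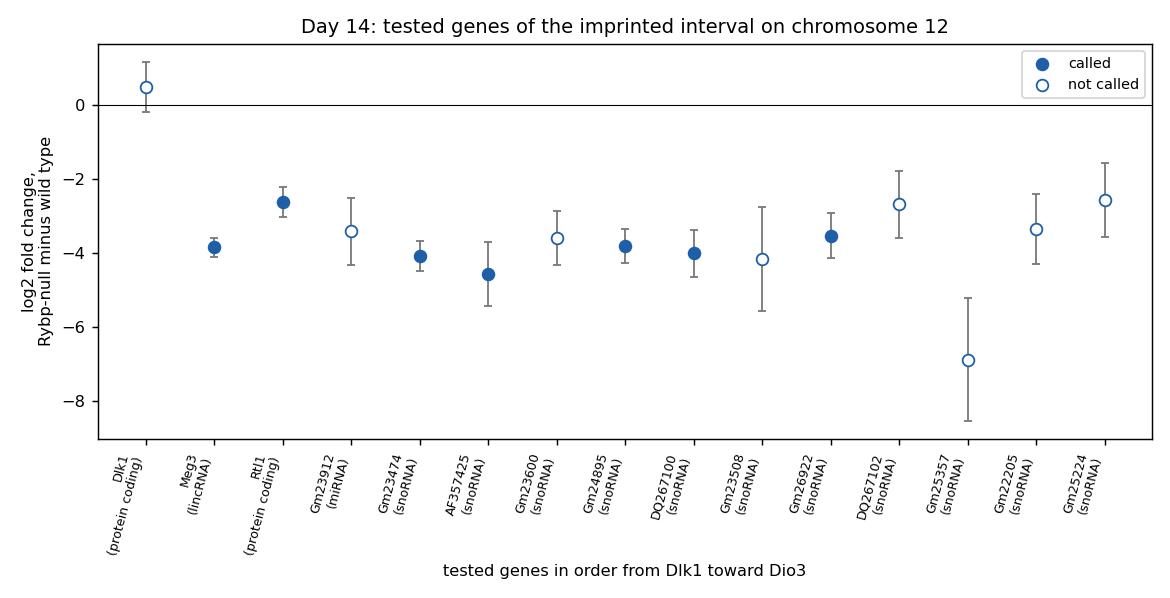
Log2 fold change of Rybp-null over wild type at day 14 for the 15 tested genes between Dlk1 and Dio3, in their order along chromosome 12, with bars of 1 standard error. Filled points are the 7 genes called lower; 14 of the 15 points lie below 0 and Dlk1 lies above it.

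Cardiac myosin, actin and titin genes of the contractile apparatus were among those called lower in null cultures, while most members of their lists did not pass. Of 9 tested thick filament genes 3 were called, all lower, with a median log2 fold change of -2.16; of 11 thin filament genes 1 was called lower, with a median of -1.08; and of 14 titin, Z-disc and M-band genes 2 were called lower, with a median of -0.98. Positive log2 fold changes were found for 1, 3 and 3 of these genes. The lists held 11, 12 and 21 genes; 1 thin filament gene did not match the table, and the other members left out had too few counts. Myh6, the alpha myosin heavy chain of heart muscle, had 9.85 and 0.741 CPM in null cultures, against 132 and 112 CPM in wild type cultures (log2 change -4.57, SE 0.63, adjusted p 0.0206, edgeR's quasi-likelihood test). Myh7, the beta heavy chain and a close relative of Myh6, had 3.94 and 0.494 CPM in null cultures, against 49 and 32.7 CPM in wild type cultures (log2 change -4.23, SE 0.54, adjusted p 0.00572). Actc1, the actin of cardiac thin filaments, had 9.29 and 1.98 CPM in null cultures, against 184 and 119 CPM in wild type cultures (log2 change -4.78, SE 0.68, adjusted p 0.029). Null replicate 1 held most of what remained of all 3 genes, and it was still far below either wild type library. Myl3, a myosin light chain, had 0.563 and 0 CPM in null cultures, against 9.73 and 7.15 CPM in wild type cultures, so that its pooled level was 31.6 times higher in wild type (95% counting interval 8.38 to 267).

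Titin, an M-band gene and a splicing factor of muscle were also called lower. Ttn, the giant elastic protein that spans the sarcomere, had 40.8 and 57.8 CPM in null cultures, against 347 and 292 CPM in wild type cultures (log2 change -2.69, SE 0.25, adjusted p 0.000347, edgeR's quasi-likelihood test). Myom1, which crosslinks myosin at the M-band, had 6.76 and 7.66 CPM in null cultures, against 48.4 and 31.1 CPM in wild type cultures (log2 change -2.45, SE 0.44). Rbm24, an RNA-binding splicing factor of muscle and the single called gene of 10 tested regulators of myofibril assembly, had 2.25 and 0.741 CPM in null cultures, against 15.2 and 11 CPM in wild type cultures (log2 change -3.13, SE 0.48). All 3 separated the groups without overlap. Tnnt2, the cardiac troponin T, had 102 and 181 CPM in null cultures and 281 and 318 CPM in wild type cultures and did not pass (log2 change -1.08, SE 0.48, adjusted p 0.397). Tpm1, a tropomyosin that smooth muscle and other cells share, had 3210 and 3830 CPM in null cultures and 3580 and 3170 CPM in wild type cultures, and these groups overlapped. Among 17 smooth muscle genes, Itga8, an integrin chain of mesenchymal and smooth muscle cells, was the single one called, with 22.8 and 22.7 CPM in null cultures, against 64.2 and 76.3 CPM in wild type cultures (log2 change -1.62, SE 0.24). The median of the smooth muscle list was -0.2.

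Calcium handling genes had lower levels as well. All 12 tested genes of calcium cycling had negative log2 fold changes, with a median of -0.9, and 2 of them were called. Slc8a1, the sodium-calcium exchanger, had 39.7 and 46 CPM in null cultures, against 141 and 111 CPM in wild type cultures (log2 change -1.56, SE 0.29, adjusted p 0.0338, edgeR's quasi-likelihood test). Ryr2, the calcium release channel of the heart, had 15.8 and 11.6 CPM in null cultures, against 39.8 and 33.4 CPM in wild type cultures (log2 change -1.42, SE 0.29, adjusted p 0.0488). Both genes were lower in each null library than in each wild type library. Atp2a2, the calcium pump of the reticulum, had 231 and 276 CPM in null cultures and 334 and 344 CPM in wild type cultures and did not pass (log2 change -0.42, SE 0.16, adjusted p 0.264). Of 25 tested cardiac transcription factors 0 passed in edgeR's or DESeq2's test, 9 had an unadjusted p under 0.05, and the median log2 fold change was -0.1. Gata4 had 38.9 and 31.6 CPM in null cultures and 34.7 and 49 CPM in wild type cultures, and Tbx20 had 74.3 and 82.1 CPM against 81.5 and 93.4 CPM; neither separated the groups by more than their spread. Nkx2-5, an early cardiac factor, had 0 CPM in both null libraries and 0 and 0.255 CPM in the wild type libraries, and so was not detectable in either genotype at this depth. The cardiomyocyte marker sum, over 10 genes, was 174 and 244 CPM in null cultures, against 1030 and 909 CPM in wild type cultures, with 1 marker at 0 in both null libraries. Of the wild type sums, 347 and 292 CPM came from Ttn, which had 341 CPM in wild type cells at day 0. A further 281 and 318 CPM came from Tnnt2, which did not pass. In bulk cultures, fewer cells of a type and less RNA of these genes per cell cannot be told apart.

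**Figure D3:**
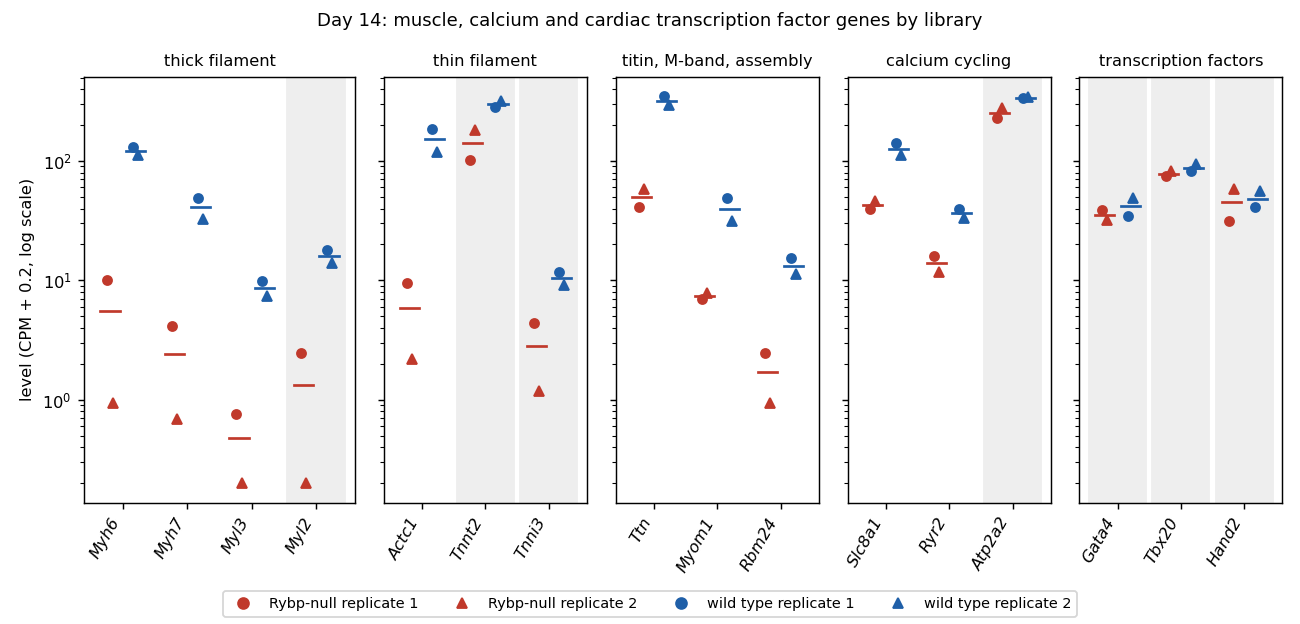
Level of muscle, calcium and cardiac transcription factor genes at day 14 (CPM + 0.2, log scale), with the 2 Rybp-null libraries in red left of the 2 wild type libraries in blue; circles are replicate 1, triangles replicate 2, bars the mean, and grey bands mark genes that did not pass. The null libraries lie below the wild type libraries for Myh6, Myh7, Actc1, Ttn and Slc8a1, and the transcription factors overlap or nearly so.

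Several muscle calls were lost on leaving out a library of day 14 or a wild type library of day 8, always with the direction kept. Without a wild type library of day 8 the log2 fold changes hardly moved, so a lost call need not mean that 1 library carried the difference. Ttn and Myh7 passed in every fit with a library left out. Without wild type replicate 2 of day 14 the log2 fold changes were -4.68 for Myh6, -5.03 for Myl3, -2.74 for Myom1, -3.35 for Rbm24, -1.72 for Slc8a1, -1.54 for Ryr2 and -1.49 for Itga8, and none of these passed. With wild type replicate 1 left out they were -4.59 for Myl3, -2.1 for Myom1, -2.88 for Rbm24, -1.37 for Slc8a1 and -1.29 for Ryr2. Without null replicate 1 the genes no longer passing were Myl3 at -8.02, Myom1 at -2.36, Slc8a1 at -1.45, Ryr2 at -1.65 and Itga8 at -1.62. Without null replicate 2 they were Actc1 at -4.02, Myl3 at -3.82, Myom1 at -2.55, Rbm24 at -2.51, Slc8a1 at -1.67, Ryr2 at -1.21 and Itga8 at -1.62. Leaving out either wild type library of day 8 removed from the calls Myh6 at -4.56, Actc1 at -4.77, Myl3 at -4.83 or -4.82, Myom1 at -2.45, Slc8a1 at -1.56 and Ryr2 at -1.42. Null replicate 2 held 0 counts of Myl3, so -8.02 without null replicate 1 is not a measured size. Myh6 and Myh7 lie on chromosome 14, whose median log2 fold change was 0.37, and the part of that shift in their values was not tested.

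Promoters of 3 of the lowered muscle genes are printed because their windows hold a CArG box, the motif bound by serum response factor. They are RefSeq windows from 250 bases before to 50 bases after the start, on GRCm38.p6, written in the direction of the gene; capitals mark the CArG box, the MEF2 box, and AGATAA or its complement TTATCT, searched on both strands. The CArG and MEF2 patterns can share bases.
Actc1 (chr2:114052826-114053125, minus strand): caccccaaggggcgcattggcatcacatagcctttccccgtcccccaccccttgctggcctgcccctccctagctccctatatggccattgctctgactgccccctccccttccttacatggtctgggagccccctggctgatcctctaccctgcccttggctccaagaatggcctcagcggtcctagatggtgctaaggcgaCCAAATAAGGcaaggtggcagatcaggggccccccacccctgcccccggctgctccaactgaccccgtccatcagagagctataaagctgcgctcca
Myl3 (chr9:110763428-110763727, plus strand): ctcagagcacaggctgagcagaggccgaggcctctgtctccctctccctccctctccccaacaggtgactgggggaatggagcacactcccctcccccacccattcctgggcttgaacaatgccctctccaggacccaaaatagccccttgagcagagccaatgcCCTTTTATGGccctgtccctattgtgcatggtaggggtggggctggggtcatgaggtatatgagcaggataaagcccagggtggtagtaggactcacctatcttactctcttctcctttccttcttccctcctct
Myom1 (chr17:71019307-71019606, plus strand): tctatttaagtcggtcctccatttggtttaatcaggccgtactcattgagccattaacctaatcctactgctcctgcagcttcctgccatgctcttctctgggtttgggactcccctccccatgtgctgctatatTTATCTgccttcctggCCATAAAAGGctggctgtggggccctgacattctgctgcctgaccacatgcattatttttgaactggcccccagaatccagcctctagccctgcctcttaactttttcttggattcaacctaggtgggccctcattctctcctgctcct
A CArG box was found in the windows of 3 of the 9 called muscle and calcium genes (33.3%), against 1.62% of the 10415 tested genes with a window. A MEF2 box was found for 1 of the 9, Ttn (11.1%, against 1.46%), and AGATAA or TTATCT for 2 of the 9 (22.2%, against 8.02%). The shares among muscle and calcium genes that were tested and not called were not counted. The values therefore do not set the lowered genes apart from other muscle genes. A match is a sequence description only.

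Some germ cell genes were called higher in null cultures. Of 37 genes on the germ cell and piRNA list 26 were tested, and 8 (30.8%) were called, all higher, with 18 log2 fold changes positive and 5 negative; the median log2 fold change was 0.94, or 1.71 without members of 3 counts or fewer in both groups and with genes at 0 counts in wild type set at their lower bound. Rnf17, a Tudor domain protein of the germ cell granule, had 32.1 and 30.4 CPM in null cultures, against 0.912 and 0.255 CPM in wild type cultures (log2 change 5.73, SE 0.48, adjusted p 0.00015, edgeR's quasi-likelihood test). Mageb16, an X-linked member of the melanoma antigen family, had 37.2 and 21.3 CPM in null cultures, against 1.82 and 1.28 CPM in wild type cultures (log2 change 4.22, SE 0.54, adjusted p 0.00502). Taf7l, a testis-specific relative of a general transcription factor subunit, had 32.4 and 17.5 CPM in null cultures, against 1.52 and 0 CPM in wild type cultures (log2 change 5.08, SE 0.78). At day 14 these genes were at or near the detection limit in wild type cultures and present in both null libraries. They were already expressed at day 0, which had 1 library a genotype. Listed with the null library first, day 0 levels were 296 and 90.4 CPM for Rnf17, 118 and 94.7 CPM for Mageb16, and 63.6 and 12.9 CPM for Taf7l. Null levels at day 14 were thus below that null library, and the change from day 0 was not tested.

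The remaining called members behaved alike at lower levels. Mael, which acts in transposon silencing in the germline, had 8.16 and 15.1 CPM in null cultures, against 0 and 0.255 CPM in wild type cultures, a pooled ratio of 85.4 (95% counting interval 14.9 to 3410). Tdrd1, a Tudor protein that binds PIWI proteins, had 5.07 and 5.68 CPM in null cultures and 0 CPM in both wild type libraries, which made it at least 13-fold higher against a floor of 3 counts over the wild type libraries together. Tex11, an X-linked meiosis gene, had 13.8 and 7.17 CPM in null cultures and 0 CPM in both wild type libraries, at least 24.7-fold higher by the same floor. None of these 3 genes had more than 1 count in wild type cultures of day 14. Their day 0 levels, null library first, were 99.5 and 20.5 CPM for Mael, 15.7 and 4.29 CPM for Tdrd1, and 53.5 and 1.32 CPM for Tex11. Tex13b, another testis-expressed gene of the X chromosome, had 7.88 and 11.4 CPM in null cultures, against 0.304 and 0 CPM in wild type cultures (pooled ratio 70.2, interval 12.2 to 2810). Stk31, a germ cell kinase, had 5.63 and 4.7 CPM in null cultures, against 0.608 and 0 CPM in wild type cultures (pooled ratio 18.5, interval 4.79 to 158). Such intervals and floors take in the error of counting alone. Ddx4, the germ cell RNA helicase Vasa, had 13.5 and 3.95 CPM in null cultures and 0 and 0.511 CPM in wild type cultures and missed the threshold (adjusted p 0.0605).

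Some genes of meiotic chromosome structure were called higher too. Of 18 tested meiosis genes, 5 were called, all higher, 14 log2 fold changes were positive and 4 negative, and the median log2 fold change was 1.81, or 1.42 by the bounded count used above. Sycp3, a component of the axis of meiotic chromosomes, had 17.2 and 7.91 CPM in null cultures, against 1.22 and 1.02 CPM in wild type cultures (log2 change 3.45, SE 0.68, adjusted p 0.0446, edgeR's quasi-likelihood test). Syce1, a central element protein of the synaptonemal complex, had 10.4 and 6.43 CPM in null cultures and 0 CPM in both wild type libraries, at least 19.9-fold higher. 4930447C04Rik, listed as Six6os1, a further central element gene, had 34.6 and 30.2 CPM in null cultures, against 6.39 and 4.34 CPM in wild type cultures (log2 change 2.6, SE 0.39). Each of these genes was higher in both null libraries of day 14 than in either wild type library of that day. Day 0 levels, null library first, were 91.4 and 75.2 CPM for Sycp3, 77 and 15.8 CPM for Syce1, and 115 and 107 CPM for 4930447C04Rik. Smc1b, a meiotic cohesin subunit, had 7.04 and 5.19 CPM in null cultures, against 0.912 and 0.511 CPM in wild type cultures, and Meioc, which promotes meiotic entry, had 7.04 and 4.94 CPM against 0.912 and 0.511 CPM. Sycp1, the transverse filament protein, had 21.4 and 17.1 CPM in null cultures and 19.2 and 13 CPM in wild type cultures and did not pass. Stra8, the inducer of meiosis, held 1 count in each null library and 0 in wild type cultures, too few for a fold. Rnf17, Mael and Stk31 lie on chromosomes 14, 1 and 6, among those with a raised median, and the part of that shift in their values was not tested.

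**Figure D4:**
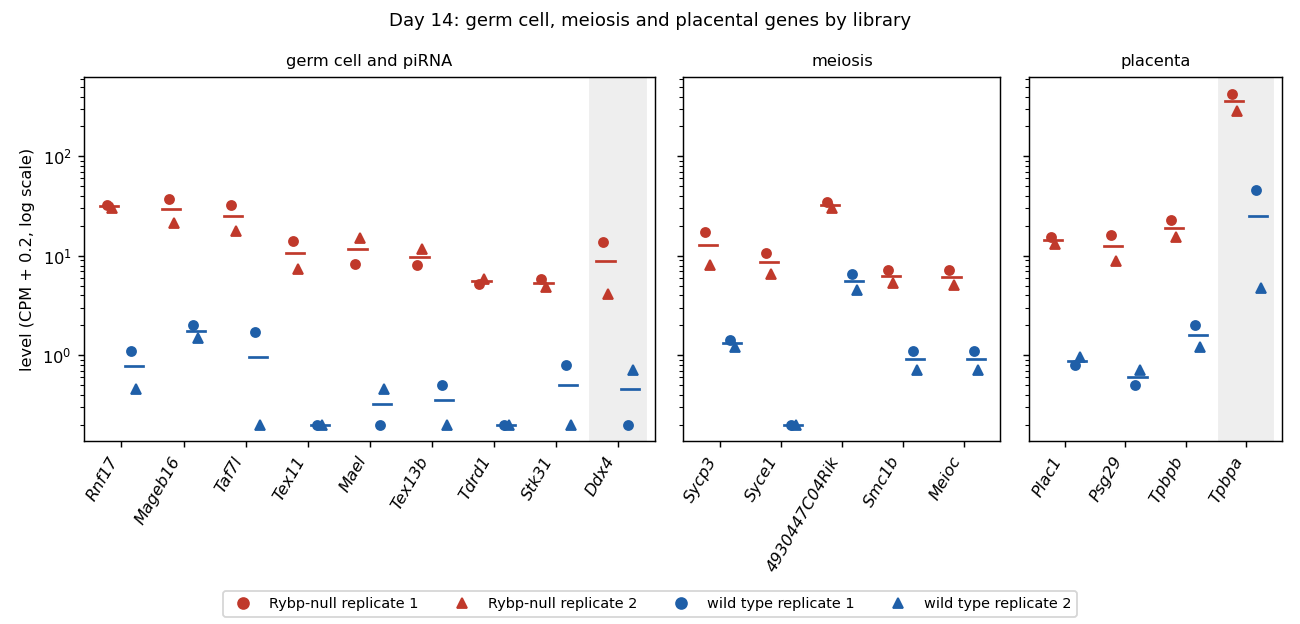
Level of germ cell, meiosis and placental genes at day 14 (CPM + 0.2, log scale), with the 2 Rybp-null libraries in red left of the 2 wild type libraries in blue; circles are replicate 1, triangles replicate 2, bars the mean, and grey bands mark genes that did not pass. All genes shown are higher in both null libraries than in both wild type libraries; for Tpbpa the wild type libraries differ about as widely from each other.

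The germ cell and meiosis calls rested on few counts. Where the wild type libraries left in a fit held 0 counts, the log2 fold change is not a measured size. That holds below for Mael, Tdrd1, Tex11 and Syce1 without wild type replicate 2. It also holds for Tex11, Tdrd1 and Stk31 without wild type replicate 1. Without wild type replicate 2 of day 14, Rnf17 alone of these 13 genes still passed, and the log2 fold changes were 3.97 for Mageb16, 4 for Taf7l, 8.47 for Mael, 7.36 for Tdrd1, 8.31 for Tex11, 4.84 for Tex13b, 3.02 for Stk31, 3.32 for Sycp3, 7.99 for Syce1, 2.34 for 4930447C04Rik, 2.69 for Smc1b and 2.67 for Meioc. Leaving out wild type replicate 1 ended the calls of Tex11 at 8.33, Tdrd1 at 7.39, Stk31 at 7.32, Sycp3 at 3.57, 4930447C04Rik at 2.89, Smc1b at 3.5 and Meioc at 3.47. Without null replicate 1 they were Stk31 at 3.92, Sycp3 at 2.8, Smc1b at 2.84 and Meioc at 2.77, and without null replicate 2 Stk31 at 4.18. Without wild type replicate 1 of day 8, Stk31, Sycp3 and Meioc stopped passing at 4.06, 3.45 and 3.04, and without replicate 2 of that group at 4.05, 3.45 and 3.04.

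Promoter windows of 4 of these genes are printed because each holds CACGTG, the E-box that the MGA and MAX pair recognises. They are RefSeq windows of the same length on GRCm38.p6, and the first annotated start was used for Tdrd1; capitals mark CACGTG, which is its own complement, and TCCCGC or GCGGGA, an E2F-type sequence, on both strands. The ends of these motifs can share a base.
Mael (chr1:166238695-166238994, minus strand): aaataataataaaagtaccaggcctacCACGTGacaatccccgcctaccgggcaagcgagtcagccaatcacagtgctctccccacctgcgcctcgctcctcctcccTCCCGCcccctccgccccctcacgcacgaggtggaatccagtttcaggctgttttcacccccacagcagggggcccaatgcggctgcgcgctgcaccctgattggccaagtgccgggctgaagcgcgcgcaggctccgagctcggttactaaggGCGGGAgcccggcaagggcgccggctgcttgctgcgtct
Sycp3 (chr10:88459337-88459636, plus strand): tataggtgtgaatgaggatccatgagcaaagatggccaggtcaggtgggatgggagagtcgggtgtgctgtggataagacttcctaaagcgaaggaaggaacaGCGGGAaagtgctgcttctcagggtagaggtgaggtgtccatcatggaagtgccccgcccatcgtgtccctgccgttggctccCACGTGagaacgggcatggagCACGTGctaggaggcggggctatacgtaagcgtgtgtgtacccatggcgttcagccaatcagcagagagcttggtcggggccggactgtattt
Tdrd1 (chr19:56825959-56826258, plus strand): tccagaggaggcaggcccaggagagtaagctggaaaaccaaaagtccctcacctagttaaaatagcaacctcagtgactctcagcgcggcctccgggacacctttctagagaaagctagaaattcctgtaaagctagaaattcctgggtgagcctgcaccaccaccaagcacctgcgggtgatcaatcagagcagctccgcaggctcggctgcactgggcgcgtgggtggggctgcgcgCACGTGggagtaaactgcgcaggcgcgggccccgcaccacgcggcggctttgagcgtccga
Taf7l (chrX:134476441-134476740, minus strand): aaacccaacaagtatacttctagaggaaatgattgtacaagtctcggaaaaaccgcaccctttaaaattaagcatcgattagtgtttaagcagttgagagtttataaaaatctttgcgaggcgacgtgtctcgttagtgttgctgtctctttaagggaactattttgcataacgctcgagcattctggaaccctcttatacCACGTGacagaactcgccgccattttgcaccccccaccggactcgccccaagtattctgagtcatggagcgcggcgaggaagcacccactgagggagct
Of the 13 called genes 11 had a window, and CACGTG was found for 6 of them (54.5%), against 9 of 27 germ cell and meiosis genes that were tested and not called (33.3%) and 11.6% of all tested genes with a window. TCCCGC or GCGGGA was found for 4 of the 11 (36.4%), against 55.6% of those not called and 39.1% of tested genes. Nothing follows from these letters about which factor was bound.

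Placental genes mostly had higher levels in null cultures, although 1 passed and wild type replicate 1 also held many of them. Of 17 tested genes of the trophoblast and placenta 1 was called, 15 had positive log2 fold changes and the median was 2.11. Plac1, an X-linked gene needed for placental growth, had 15.2 and 13.1 CPM in null cultures, against 0.608 and 0.766 CPM in wild type cultures (log2 change 4.29, SE 0.59, adjusted p 0.00764, edgeR's quasi-likelihood test). Outside the list, Psg29, of the pregnancy-specific glycoproteins, had 16 and 8.65 CPM in null cultures, against 0.304 and 0.511 CPM in wild type cultures, and Tpbpb, a trophoblast-specific gene, had 22.8 and 15.3 CPM against 1.82 and 1.02 CPM. The 3 genes were called higher, and their groups did not overlap; Psg29 and Tpbpb have close copies and are uncertain. Tpbpa, a marker of the spongiotrophoblast, had 427 and 289 CPM in null cultures and 45.9 and 4.59 CPM in wild type cultures and did not pass (log2 change 3.85, SE 0.98, adjusted p 0.216). Tfap2c, a trophoblast transcription factor, had 150 and 104 CPM in null cultures and 48.4 and 3.06 CPM in wild type cultures, and the homeobox gene Rhox6 had 61.1 and 40.5 CPM against 16.7 and 0.255 CPM. In both, the wild type libraries lay further apart on a log scale than the null libraries. Leaving out wild type replicate 2 gave log2 fold changes of 4.47 for Plac1, 5.19 for Psg29 and 3.36 for Tpbpb, without wild type replicate 1 they were 4.15, 4.51 and 4.18, and without null replicate 1 they were 4.28 for Psg29 and 3.42 for Tpbpb, none of them past the threshold. The sum over 4 epithelial markers was 470 and 192 CPM in null cultures and 189 and 89.4 CPM in wild type cultures. Null replicate 2 thus lay close to wild type replicate 1. No marker was at 0, and 0 of the 4 were called. Cdh1, the largest part of the sum, had 279 and 94.2 CPM in null cultures and 103 and 40.1 CPM in wild type cultures. Its groups overlapped, as did those of Epcam, while those of Krt8 and Krt18 did not. The part of these markers in the result was not tested.

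Osteoclast and macrophage genes had lower levels in null cultures, with 5 of them called. Of 8 tested osteoclast genes 3 were called, all lower, and the median log2 fold change was -1.86. Atp6v0d2, a proton pump subunit needed for osteoclast fusion, had 0.845 and 0.989 CPM in null cultures, against 22.2 and 54.6 CPM in wild type cultures (log2 change -5.34, SE 0.63, adjusted p 0.00305, edgeR's quasi-likelihood test). Ctsk, the protease that degrades bone collagen, had 1.41 and 4.2 CPM in null cultures, against 22.5 and 86.3 CPM in wild type cultures (log2 change -4.24, SE 0.66). Acp5, the tartrate-resistant acid phosphatase, had 5.07 and 10.9 CPM in null cultures, against 35.9 and 96.2 CPM in wild type cultures (log2 change -3.04, SE 0.5). Wild type replicate 2 was the highest library for all 3 genes, and both null libraries lay below wild type replicate 1. All 27 tested macrophage genes had negative log2 fold changes, with a median of -1.31, and 2 were called. Lyz2, a lysozyme with a close copy, had 2.25 and 4.7 CPM in null cultures, against 25.2 and 41.1 CPM in wild type cultures (log2 change -3.23, SE 0.52). Itgb2, the beta chain of leukocyte integrins, had 2.25 and 4.45 CPM in null cultures, against 20.7 and 20.2 CPM in wild type cultures (log2 change -2.58, SE 0.46). Both showed no overlap between groups. Csf1r, the receptor on which macrophages depend, had 35.5 and 34.4 CPM in null cultures and 79.7 and 118 CPM in wild type cultures and missed the threshold (adjusted p 0.0621).

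C3ar1, a complement receptor of myeloid cells outside the list, had 89.8 and 86.5 CPM in null cultures, against 266 and 258 CPM in wild type cultures (log2 change -1.57, SE 0.25, adjusted p 0.017, edgeR's quasi-likelihood test). The sum over 4 macrophage markers was 105 and 116 CPM in null cultures, against 274 and 377 CPM in wild type cultures, with no marker at 0. None of the osteoclast and myeloid calls passed without wild type replicate 2, where the log2 fold changes were -4.54 for Atp6v0d2, -2.97 for Ctsk, -2.16 for Acp5, -2.84 for Lyz2, -2.6 for Itgb2 and -1.59 for C3ar1. Without null replicate 1 those no longer passing were Ctsk at -3.69, Acp5 at -2.6, Lyz2 at -2.81, Itgb2 at -2.19 and C3ar1 at -1.59. On leaving out wild type replicate 1 they were Itgb2 at -2.56 and C3ar1 at -1.55, without null replicate 2 C3ar1 at -1.54, and without either wild type library of day 8 Itgb2 at -2.58. At day 8, 0 osteoclast genes were called by edgeR and 1 by DESeq2, 2 had an unadjusted p under 0.05 and the list median was 0.51. Day 8 cultures held few counts of these genes, 3 in null and 1 in wild type for Atp6v0d2, and 5 and 6 for Ctsk. The day 8 log2 fold change of 1.22 (SE 1.48) for Atp6v0d2 is thus at the floor and gives no direction. The difference between days did not pass for it (adjusted p 0.641, edgeR's quasi-likelihood test).

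Vessel, endoderm and collagen lists gave few calls. Of 23 tested endothelial genes 2 were called, both lower, with 6 log2 fold changes positive, 17 negative and a median of -0.8. Tek, the angiopoietin receptor, had 19.7 and 27.9 CPM in null cultures, against 64.2 and 64.3 CPM in wild type cultures (log2 change -1.43, SE 0.22, adjusted p 0.0135, edgeR's quasi-likelihood test). Emcn, endomucin of vein and capillary endothelium, had 0.282 and 0 CPM in null cultures, against 7.91 and 7.15 CPM in wild type cultures, a pooled ratio of 56.9 in favour of wild type (95% counting interval 9.79 to 2290). Both were lower in each null library. Null replicate 2 held 0 counts of Emcn, so its log2 fold change below without null replicate 1 is not a measured size. Cdh5, the endothelial cadherin, ran the other way without passing, with 55.7 and 38.1 CPM in null cultures and 19.5 and 6.64 CPM in wild type cultures (adjusted p 0.0675), and the sum over 4 endothelial markers was 114 and 68.8 CPM in null cultures and 117 and 72.2 CPM in wild type cultures. Of 23 tested visceral endoderm and liver-type genes 1 was called, with 11 log2 fold changes positive, 12 negative and a median of -0.03. That gene, Afp, a product of visceral endoderm and fetal liver, had 8.45 and 2.72 CPM in null cultures, against 43.5 and 34.7 CPM in wild type cultures (log2 change -2.82, SE 0.49). Of 28 tested collagen genes 1 was called lower, although 15 log2 fold changes were positive and 13 negative, with a median of 0.25. It was Col14a1, a fibril-associated collagen, which had 26.5 and 22 CPM in null cultures, against 62.7 and 83.5 CPM in wild type cultures (log2 change -1.59, SE 0.27). Gap43, a growth cone protein, had 11.5 and 5.44 CPM in null cultures, against 39.5 and 27.3 CPM in wild type cultures (log2 change -1.98, SE 0.34). Without wild type replicate 2 none of these 5 genes passed, and the log2 fold changes were -1.42 for Tek, -5.59 for Emcn, -2.97 for Afp, -1.37 for Col14a1 and -2.23 for Gap43; without wild type replicate 1 they were -1.43, -5.45, -2.65, -1.78 and -1.69, again below the threshold. Null replicate 1 left out removed Tek at -1.2, Emcn at -7.85 and Col14a1 at -1.73, null replicate 2 removed Emcn at -4.58, Afp at -2.2, Col14a1 at -1.46 and Gap43 at -1.53, and either wild type library of day 8 removed Emcn at -5.52, Col14a1 at -1.59 and Gap43 at -1.98.

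Mitosis genes had slightly lower levels throughout. All 26 tested genes of mitosis had negative log2 fold changes, with a median of -0.67, and 3 were called. Mki67, the Ki-67 protein of dividing cells, had 384 and 426 CPM in null cultures, against 735 and 727 CPM in wild type cultures (log2 change -0.85, SE 0.15, adjusted p 0.0229, edgeR's quasi-likelihood test). Ttk, a checkpoint kinase, had 37.2 and 34.4 CPM in null cultures, against 88.8 and 71.5 CPM in wild type cultures (log2 change -1.16, SE 0.21), and Ndc80, of the outer kinetochore, had 54.1 and 52.1 CPM against 96.1 and 93.2 CPM (log2 change -0.83, SE 0.17). Replicates lay close together and the groups did not overlap. Of 25 tested DNA replication genes 0 passed in edgeR's or DESeq2's test, 5 had an unadjusted p under 0.05, and the median was -0.27. The 3 mitosis calls were lost without any of the 4 libraries of day 14 or either wild type library of day 8, at log2 fold changes between -0.93 and -0.78 for Mki67, -1.31 and -1 for Ttk, and -0.86 and -0.81 for Ndc80. At day 8 their log2 fold changes were 0.15, -0.34 and 0.05.

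Among abundant genes called higher, several lay on the chromosomes with a raised median. Copa, a coat protein of Golgi vesicles on chromosome 1, had 1090 and 1030 CPM in null cultures, against 617 and 665 CPM in wild type cultures (log2 change 0.73, SE 0.14, adjusted p 0.0423, edgeR's quasi-likelihood test). Wnt5a, a ligand of non-canonical Wnt signalling on chromosome 14 and the single called gene of 39 tested Wnt pathway genes, had 85.3 and 111 CPM in null cultures, against 34.4 and 38.3 CPM in wild type cultures (log2 change 1.44, SE 0.23, adjusted p 0.0176). Both were higher in each null library than in either wild type library. Map4k4 on chromosome 1, Klhdc10 on chromosome 6 and Dlg5 on chromosome 14 were called higher too, as was Limk2, a kinase that acts on cofilin, on chromosome 11. Limk2 had 186 and 153 CPM in null cultures, against 86.7 and 75.3 CPM in wild type cultures. None of these passed without wild type replicate 2 or wild type replicate 1, at 0.79 and 0.68 for Copa, 1.52 and 1.36 for Wnt5a, 0.88 and 0.86 for Map4k4, 1.18 and 1.16 for Klhdc10, 0.9 and 0.93 for Dlg5, and 0.97 and 1.17 for Limk2. Without null replicate 1 the log2 fold changes were 0.69 for Copa, 0.84 for Map4k4, 0.86 for Klhdc10, 0.88 for Dlg5 and 0.93 for Limk2, without null replicate 2 they were 0.77 for Copa, 1.23 for Wnt5a, 0.9 for Map4k4 and 0.95 for Dlg5, and these did not pass. Either wild type library of day 8 left out removed Copa at 0.73, Map4k4 at 0.87, Klhdc10 at 1.17, Dlg5 at 0.92 or 0.91 and Limk2 at 1.07.

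**Figure D5:**
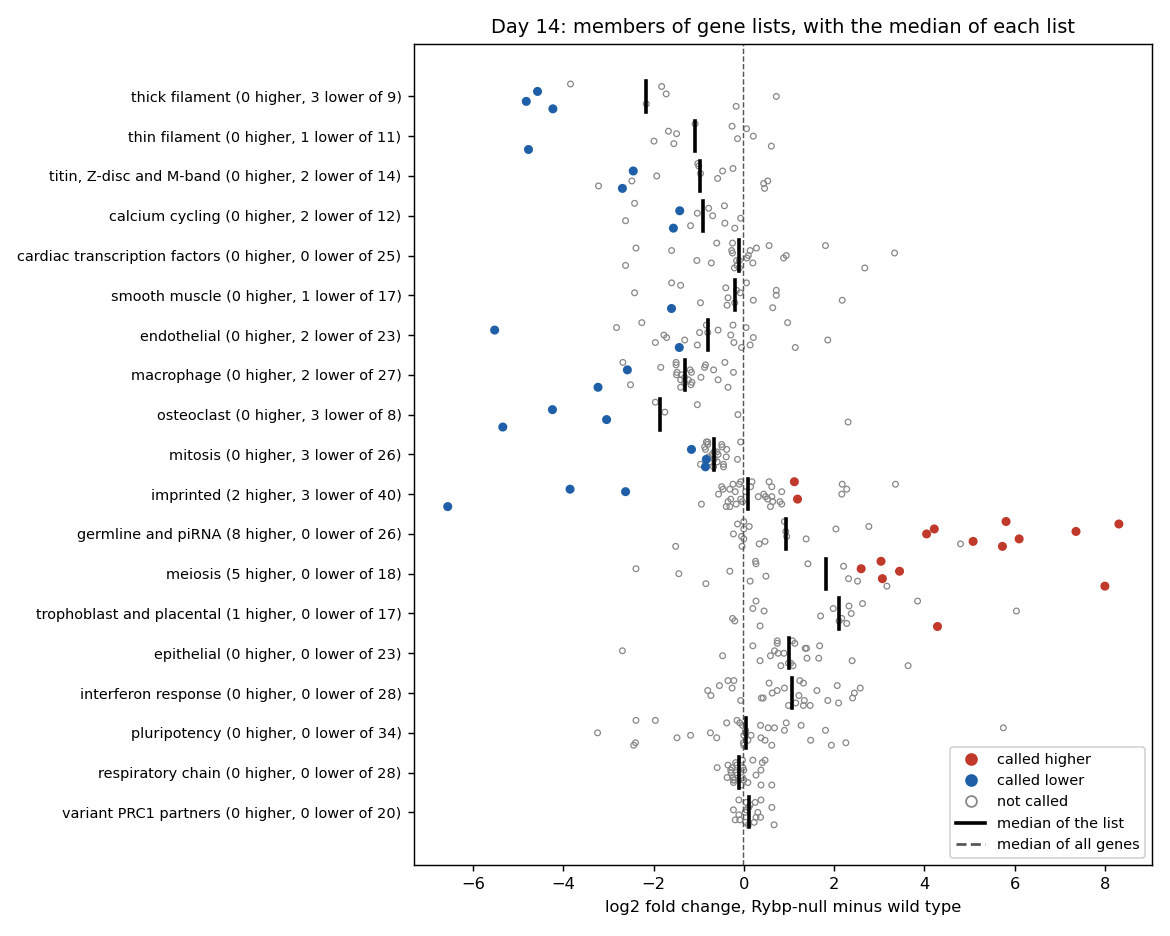
Log2 fold change of Rybp-null over wild type at day 14 for the tested members of 19 gene lists, 1 row a list, with the number called higher and lower of those tested. Filled points are called genes, open points are not called, black bars are list medians and the dashed line is the median of all tested genes; the muscle, macrophage, osteoclast and mitosis rows lie left of it and the germ cell, meiosis and placental rows right of it.

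Day 14 was set beside day 8, whose 4 libraries are different ones. At day 8, 200 genes (1.26%) were called, 80 higher (0.506%) and 120 lower (0.759%), and 45 genes were called at both days in the same direction and 0 in opposite directions. Ttn had a log2 fold change of -2.69 (SE 0.25) at day 14 and -5.42 (SE 0.28) at day 8, Myh6 of -4.57 and -7.21, Myh7 of -4.23 and -6.8, and Slc8a1 of -1.56 and -3.09. Ttn had the smallest p for a difference between the days, with an adjusted p of 0.0669 in edgeR's quasi-likelihood test of the interaction, and so did not pass. In that test 0 genes were called, where DESeq2 called 8 and 961 of the 15819 tested genes had an unadjusted p under 0.05. No single gene's genotype difference was thus shown by edgeR to differ between days 14 and 8.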

How the data were processed

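RNA-seq read counts per Ensembl gene were used as deposited by the authors: whole numbers, not normalized. The submitters' processing notes list build mm9 and the tools TopHat, HTSeq and DESeq, with no roles; versions, annotation and strand setting remain not given in the sources used here, so reads of overlapping, antisense or near-identical genes cannot be told apart. The table lists 36191 gene IDs; 30946 matched a symbol, 5245 did not, and 7954 had 0 counts in all libraries. Chromosomes and gene order came from GENCODE vM21, on GRCm38, so the table's own coordinates are not given.

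Counts of all 10 libraries were fitted with edgeR 4.0.16 in R 4.3.3 (filterByExpr with a minimum count of 10, TMM scaling, robust quasi-likelihood fit, 6 genotype-by-day groups, 4 residual degrees of freedom, common biological coefficient of variation 0.214). Tests were two-sided, with Benjamini-Hochberg adjustment over the 15819 tested genes and calls at an adjusted p under 0.05; no replicate block was used. Each SE was derived by dividing the size of the log2 change by the square root of F, and so restates the p of the gene. For groups at 0 counts, folds are bounds against 3 counts over the group; at 1 to 3 counts the ratio has a 95% exact counting interval. On simulated counts for this comparison over 15819 genes, the fit recovered 80 of 100 genes changed 4-fold and 18 of 100 changed 2-fold, and called 5 unchanged genes. The simulation gave every gene the same common spread and its mean over all 10 libraries, with no other difference between groups. Real genes differ in spread and many called genes are near 0 in 1 group, so these rates need not hold for them. DESeq2 1.42.0 was an alternative.

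The lists and the genes named were chosen with earlier results of these data known. Genes are named by a rule: a fixed set of genes of the study's subject; the 15 largest called changes in each direction with at least 5 CPM, leaving out Gm, Rik and pseudogene symbols; the 8 most abundant called genes in each direction; up to 8 called members of each list, or else its 2 most abundant members; and up to 10 genes called in the interaction. Other genes given with values, namely the snoRNA genes, Uty, Eif2s3y and uncalled members set beside called ones, were chosen after their values were seen. Lists are described by counts and medians, with no set test. A gene named by the rule is not reported here.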

Additional observations from a re-analysis of the deposited data

How the results depend on the processing

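With 2 shallow libraries a group, genes under a few CPM and changes near 2-fold are often out of reach. The day 14 count of 97 genes (41 higher, 56 lower) was 98 with RLE size factors, 95 with upper quartile scaling and 93 with days 8 and 14 only, and moved to 637 (344 and 293) without the filter on low counts, 202 (100 and 102) in DESeq2, 117 with day 14 libraries only and 55 (19 and 36) without genes of chromosomes 1, 6, 8, 14 and Y. Leaving out single libraries gave 14 to 301 calls in all, 3 to 138 higher and 11 to 163 lower; the lowest came without wild type day 14 replicate 2, where 13 of the 97 genes were still called. The day 8 count of 200 became 708 without the filter and 100 without those chromosomes, with 28 to 324 over the libraries left out. The interaction count of 0 became 65 without the filter and 8 in DESeq2, with 0 to 2 over the libraries left out. No direction reversed for the 64 called genes of the naming rule; uncalled genes near 0, such as Mga (0.03, and -0.03 without wild type day 14 replicate 2), changed sign.

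With replicate number as a block, 348 genes were called at day 14 (190 higher, 158 lower), the 97 among them, 423 at day 8 and 11 for the interaction. Deviations of same-numbered samples correlated at 0.16 at day 14 and 0.065 at day 8; with 2 numbers a day the pairing is not established.

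Fitted to day 14 libraries only, Myh6, Ryr2, Ctsk, Acp5, Gap43, Stk31, Smc1b, Meioc and Ndc80 no longer passed. Ryr2 also missed with RLE or upper quartile scaling, Ndc80 with upper quartile scaling, Actc1 without the filter, and Stk31, Sycp3, Smc1b, Meioc, Kdf1 and Ndc80 with days 8 and 14 only. Without chromosomes 1, 6, 8, 14 and Y, Slc8a1, Ryr2, Sycp3, Kdf1 and Ndc80 missed. DESeq2 shared 93 of the 97 calls and gave no adjusted p for Kdf1, Psg29 and AF357425. Ddx4 and Aldoa passed in DESeq2, without the filter and with the block, Cdh1 with the block, and Tnnt2 without either null library of day 8. The causes were not tested.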

Other observations

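Interferon response genes mostly had higher levels in null cultures without passing: of 28 tested 0 were called by edgeR's quasi-likelihood test and 1 by DESeq2, 11 had an unadjusted p under 0.05, 21 had positive log2 fold changes and the median was 1.07. Glycolysis and hypoxia genes ran the other way, with 0 of 30 called by edgeR, 2 by DESeq2, 11 at an unadjusted p under 0.05, 27 negative and a median of -0.44. Aldoa, a glycolytic aldolase, had 306 and 246 CPM in null cultures and 447 and 464 CPM in wild type cultures (adjusted p 0.0651, edgeR's quasi-likelihood test). Epithelial genes had 0 of 23 called by edgeR, 2 by DESeq2, 9 at an unadjusted p under 0.05, 21 positive and a median of 0.99; for Cdh1, the epithelial cadherin, levels were 279 and 94.2 CPM in null cultures and 103 and 40.1 CPM in wild type cultures, with overlapping groups. Ribosomal protein genes (33 tested, median -0.03) and respiratory chain genes (28 tested, median -0.1) had 0 called by either tool, with 2 and 3 at an unadjusted p under 0.05.

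Several other genes named by the rule were called. Pde10a, a cyclic nucleotide phosphodiesterase, had 29.3 and 14.3 CPM in null cultures, against 1.52 and 1.02 CPM in wild type cultures (log2 change 4.08, SE 0.56), beside a day 8 log2 fold change of 0.25 (SE 0.46). Kdf1, an epidermal differentiation factor, had 8.73 and 4.94 CPM in null cultures and 0 CPM in both wild type libraries, at least 16.1-fold higher. With 0 counts in wild type cultures, the log2 fold changes given below for Kdf1 are not measured sizes. Heg1, a receptor needed for heart and vessel growth, had 187 and 228 CPM in null cultures, against 431 and 417 CPM in wild type cultures (log2 change -1.03, SE 0.18). Chd5, a chromatin remodeller of neurons and testis, had 1.13 and 0.741 CPM in null cultures, against 7.91 and 10.7 CPM in wild type cultures (log2 change -3.29, SE 0.6). None of these 4 passed without wild type day 14 replicate 2, where the log2 fold changes were 3.81 for Pde10a, 7.7 for Kdf1, -1.06 for Heg1 and -3.05 for Chd5, or without wild type replicate 1, at 4.37, 7.72, -1.01 and -3.49. Leaving out null replicate 1 ended the calls of Kdf1 at 7.25, Heg1 at -0.89 and Chd5 at -3.6, null replicate 2 those of Kdf1 at 8.05 and Chd5 at -3.01, and either wild type library of day 8 those of Heg1 at -1.03 and Chd5 at -3.29.

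The following 4 genes called lower lie outside the rule and were chosen after their values were seen. Epha3, an ephrin receptor, had 14.1 and 23 CPM in null cultures, against 63.6 and 78.9 CPM in wild type cultures (log2 change -1.94, SE 0.37). Sema3a, a secreted semaphorin, had 18 and 17.8 CPM in null cultures, against 52.6 and 47.5 CPM in wild type cultures (log2 change -1.48, SE 0.26). Itga4, an integrin chain of the epicardium and blood cells, had 16.3 and 15.1 CPM in null cultures, against 52.3 and 49 CPM in wild type cultures (log2 change -1.69, SE 0.25). Hlf, a transcription factor of the PAR bZIP family, had 38 and 44.2 CPM in null cultures, against 173 and 194 CPM in wild type cultures (log2 change -2.16, SE 0.36). Their groups did not overlap, which adds no support because all 4 were chosen from the called genes.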
